A study of Ovis aries with 32 samples.

Results

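The genes of the cell cycle and of proliferation were followed in cultured perirenal preadipocytes of fetal sheep, before and after their differentiation into adipocytes. The list holds 47 genes, chosen by name: cyclins and their kinases, kinase inhibitors and pocket proteins, the transcription factors E2F1 and FOXM1, genes of DNA replication, and genes of mitosis. Of these, 39 have a row under that name in the deposited table, and all 39 passed the filter on low values, among 12737 genes tested of 21271 in the table. The other 8 (MKI67, CDT1, RRM2, CCNB1, BUB1B, CENPE, CENPF and BIRC5) were not analysed here.

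RNA was sequenced from 32 libraries, 4 in each of 8 groups. The preadipocytes came from male controls (MC), female controls (FC), males with fetal growth restriction (MFGR) and females with fetal growth restriction (FFGR), and the differentiated adipocytes of the same 4 backgrounds are MCD, FCD, MFGRD and FFGRD. All fetuses were near term and carried by Columbia-Rambouillet crossbred ewes. Growth restriction was produced by keeping the pregnant ewes in a hot environment during gestation, while the ewes of the controls were kept at a normal temperature and fed to match. No genetic change was made. The labels do not say whether the 4 libraries of a group came from 4 fetuses, so p-values measure the spread between these libraries. In RNA from a whole culture, fewer cycling cells and less RNA of these genes per cell cannot be told apart.

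A cell that divides passes from G1 into S phase, copies its DNA, and separates the copies in mitosis. Cyclin D with CDK4 or CDK6, and then cyclin E with CDK2, phosphorylate the pocket proteins (RB1, RBL1 and RBL2), which frees E2F factors to switch on the genes of S phase. Inhibitors such as p21 (CDKN1A), p27 (CDKN1B) and p18 (CDKN2C) hold these kinases back. FOXM1 drives the genes of G2 and mitosis. Preadipocyte lines stopped by contact are known to divide again when hormones of differentiation are added, before they leave the cycle and fill with lipid, and cyclin D3 is also known as a partner of PPARG in fat cells.

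Values are normalized read values summed over the transcripts of a gene, and a change is the difference of log2(value + 1) in differentiated cells minus preadipocytes, which understates changes of low values. A gene was called when its adjusted p in limma (Benjamini-Hochberg, over the 12737 genes) was below 0.05 and its fold change above 1.5. Values depend on gene length, so levels are compared between libraries and not between genes.

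In the mean of the 4 backgrounds, most of these genes were higher after differentiation than before it. Of the 39 genes, 23 rose, 1 fell (CCND1, cyclin D1) and 15 were not called, against 27.2% of all genes called, 12.4% higher and 14.8% lower. The median change of the 39 genes was 0.97 on the log2 scale, against 0.03 over all genes tested. The estimate was above 0 for 33 of the 39 genes, and for 52.4% of all genes. The changes ran from -3.27 for CCND1 to 2.60 for CCNE2.

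A group of 9 libraries stood apart by a steep fall of values with the genomic span of the transcripts (log2 per log10 of span below -0.8): MCD2, MCD4, MFGR1, MFGRD1, FC2, FCD2, FFGR2, FFGR3 and FFGRD3. Without them, with 12 preadipocyte and 11 differentiated libraries left, 16 of the 39 genes were called, 14 higher and 2 lower (CCND1 and CDKN1A), against 27.8% of 12390 genes. The calls lost were those of CDC20, TPX2, CDC6, FOXM1, E2F1, KIF11, KIF20A, AURKA, CCNB2, CCNA2 and CDK1, all with estimates still above 0, and RBL1, MCM6 and CDKN1A were called in addition. With that slope as a covariate and all 32 libraries kept, 26 genes were called, against 32.8% of all genes. The choice of these 9 libraries was made after their values had been seen.

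**Figure D1:**
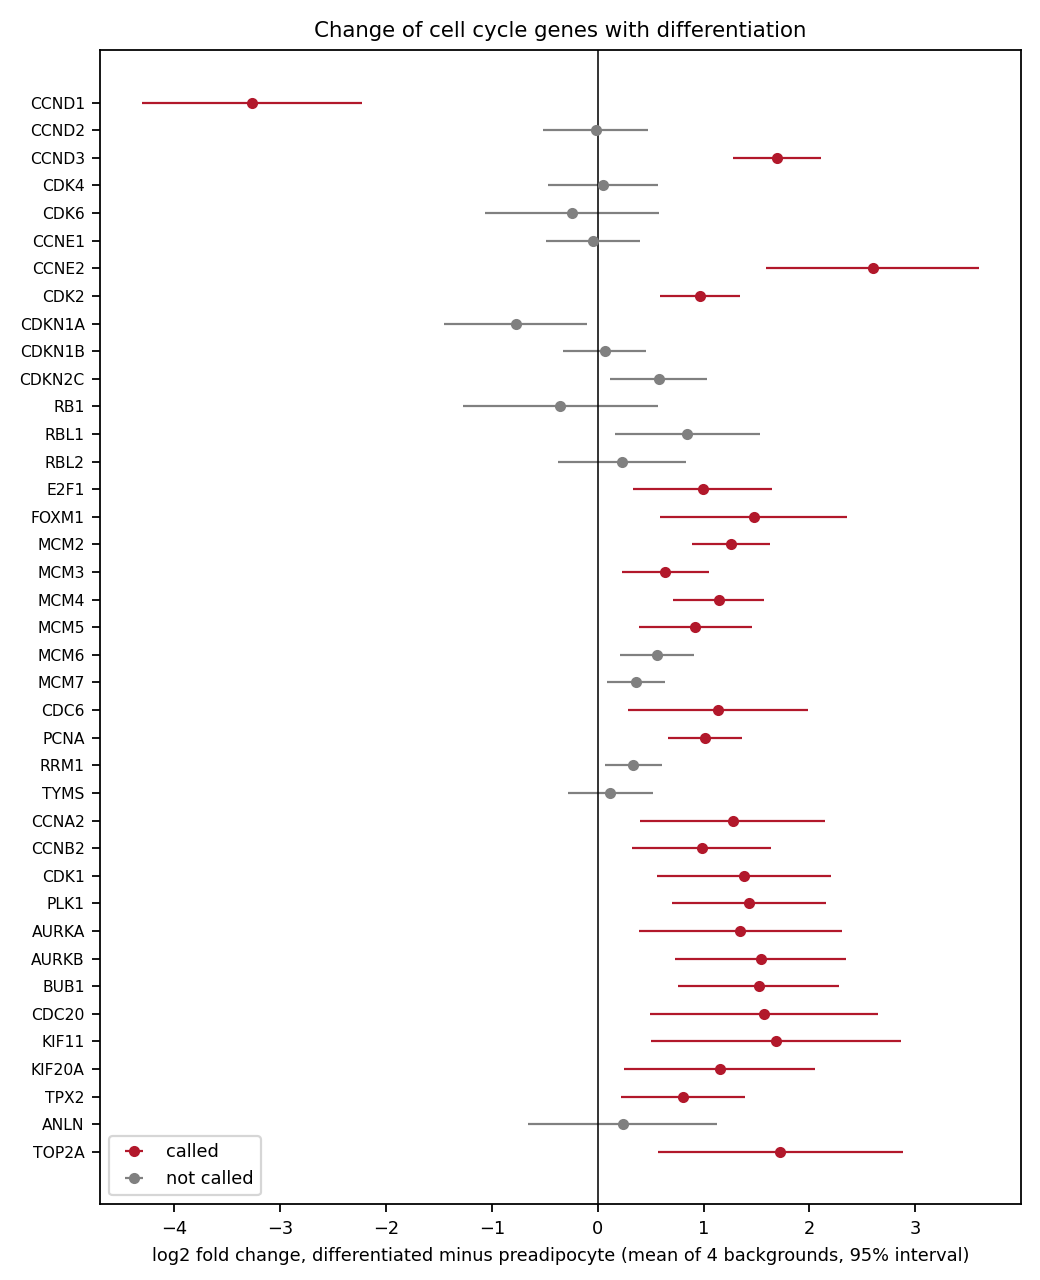
Change with differentiation of the 39 genes, ordered by role. Points are log2 fold changes (differentiated minus preadipocyte, mean of the 4 backgrounds), lines are 95% intervals from limma, and red marks the 24 called genes. CCND1, at -3.27, is the only red point below 0, and 23 red points lie above it.

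The cyclins of G1 moved in different directions. Of 8 genes of cyclin D, cyclin E and their kinases, CCND3, CCNE2 and CDK2 rose, CCND1 fell, and CCND2, CDK4, CDK6 and CCNE1 were not called.

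Cyclin D1 links growth factor signals to entry into the cycle. CCND1 (ENSOARG00020018440, chromosome 21, 48706453 to 48715672 in Oar_rambouillet_v1.0) ranged from 21.2 to 919.7 (median 171) in the preadipocyte libraries and from 2.37 to 150.0 (median 21.6) in the differentiated ones. In control males, CCND1 was 171, 148, 132 and 246 in the MC libraries and 27.5, 36.3, 7.80 and 30.0 in the MCD libraries. In control females, CCND1 was 513, 50.1, 87.9 and 170.4 in the FC libraries and 52.8, 150.0, 3.19 and 10.7 in the FCD libraries. The MC and MCD libraries did not overlap, while in female controls FCD2 lay above FC2 and FC3, and FCD1 lay above FC2. In growth-restricted males, CCND1 was 108, 129, 308 and 501 in the MFGR libraries and 18.2, 5.86, 12.5 and 25.1 in the MFGRD libraries. In growth-restricted females, CCND1 was 919.7, 21.2, 201 and 304 in the FFGR libraries and 43.7, 2.37, 7.12 and 25.0 in the FFGRD libraries. The MFGR and MFGRD libraries were also apart, and FFGR2, the lowest preadipocyte library, overlapped with the differentiated ones. The mean change was -3.27 (SE 0.51, adjusted p = 1.1e-05). Several differentiated values stand for only a few reads (1 read was worth between 0.72 and 1.82 in a library), which limits the precision of the fold. The change was -4.17 (adjusted p = 5.8e-06) without the 9 libraries of steep slope.

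Cyclin D3 went the other way. CCND3 (ENSOARG00020015730, chromosome 20, 17452109 to 17546718) ranged from 160.4 to 662 (median 267) before and from 539 to 2259 (median 789) after differentiation. In control males, CCND3 was 282, 243, 381 and 455 in the MC libraries and 539, 1776, 1121 and 2259 in the MCD libraries. In control females, CCND3 was 315, 433, 200.002 and 252 in the FC libraries and 713, 1035, 653 and 724 in the FCD libraries. In both, each differentiated library was above all 4 preadipocyte libraries. In growth-restricted males, CCND3 was 361, 249, 229 and 185 in the MFGR libraries and 1437, 909, 655 and 739 in the MFGRD libraries. In growth-restricted females, CCND3 was 338, 662, 233 and 160.4 in the FFGR libraries and 784, 795, 1489 and 766 in the FFGRD libraries. These groups did not overlap either. CCND3 rose by 1.69 (SE 0.20, adjusted p = 2.6e-07), which had the smallest p of the 39 genes. The table holds 4 transcripts of the gene, of which 3 were tested, and all 3 rose, with changes of 1.75, 1.21 and 2.41.

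The ratio of CCND3 to CCND1 is used here only to compare libraries. In preadipocytes it ran from 0.37 to 31.2 with a median of 1.65, and in differentiated cells from 6.90 to 335 with a median of 60.1. The highest preadipocyte ratio, 31.2, was that of FFGR2, 1 of the 9 libraries of steep slope. CCND2, the other D-type cyclin, had an estimate of -0.02 (SE 0.24, adjusted p = 0.96). For CDK4 and CDK6, the kinases these cyclins bind, the estimates were 0.05 (SE 0.25, adjusted p = 0.91) and -0.24 (SE 0.40, adjusted p = 0.70). The widest of these 3 intervals was that of CDK6, from -1.06 to 0.58.

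Cyclin E2 had the largest rise. CCNE2 (ENSOARG00020003851, chromosome 9, 90524570 to 90535291) ranged from 0 to 121 (median 10.8) in preadipocytes and from 34.5 to 224 (median 95.6) in differentiated cells. In control males, CCNE2 was 61.2, 99.1, 9.17 and 14.3 in the MC libraries and 129, 199, 134 and 37.2 in the MCD libraries. In control females, CCNE2 was 42.6, 1.28, 40.7 and 10.8 in the FC libraries and 79.0, 224, 142 and 36.7 in the FCD libraries. MC1 and MC2 lay within the range of the MCD libraries, and FC1 and FC3 above the lowest FCD library. In growth-restricted males, CCNE2 was 7.66, 10.8, 121 and 7.37 in the MFGR libraries and 81.1, 65.4, 174 and 34.5 in the MFGRD libraries. In growth-restricted females, CCNE2 was 12.8, 0, 9.44 and 10.7 in the FFGR libraries and 47.7, 108, 83.5 and 135 in the FFGRD libraries. Only in FFGR were the groups apart, and there 1 library was listed at 0. The mean rise was 2.60 (SE 0.49, adjusted p = 1.4e-04). CDK2, the kinase that cyclin E activates, rose by 0.97 (SE 0.19, adjusted p = 1.7e-04), with values from 55.8 to 204 (median 119) before and from 149 to 482 (median 236) after. For CCNE1, the other E-type cyclin, the estimate was -0.04 (SE 0.22, adjusted p = 0.91).

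No inhibitor or pocket protein was called among 6 tested. CDKN1A (p21, ENSOARG00020023947, chromosome 20, 12236794 to 12238957), a target of p53 that stops the cycle, had the lowest estimate, -0.78 (SE 0.33, adjusted p = 0.072). In control males, CDKN1A was 502, 668, 729 and 1288 in the MC libraries and 251, 861, 622 and 2131 in the MCD libraries. In control females, CDKN1A was 1415, 930.2, 462 and 685 in the FC libraries and 729, 2201, 189 and 532 in the FCD libraries. In these 2 backgrounds the stages overlapped widely, and MCD4 and FCD2 were the highest libraries. In growth-restricted males, CDKN1A was 898, 680.3, 818 and 2036 in the MFGR libraries and 305, 197, 463 and 739 in the MFGRD libraries. In growth-restricted females, CDKN1A was 2026, 1009, 928 and 1201 in the FFGR libraries and 1154, 137, 539 and 675 in the FFGRD libraries. The growth-restricted groups overlapped less, with changes of -1.40 in MFGR and -1.32 in FFGR against -0.03 in MC and -0.34 in FC. The difference of the growth-restricted from the control response was -1.18 (SE 0.66, adjusted p = 0.99). MCD4 and FCD2 are among the 9 libraries of steep slope, and without these 9 the changes were -0.92 in MC, -0.87 in FC, -1.35 in MFGR and -1.71 in FFGR, with a difference of -0.64 (SE 0.75). In the mean of the backgrounds, CDKN1A was called lower with the replicate number as a block, at -0.78 (adjusted p = 0.0060). That fit also pairs the FFGR libraries, whose numbers were not taken to mark pairs. With the slope as a covariate CDKN1A was likewise called lower, at -0.78 (adjusted p = 0.044). It was also called without the 9 libraries of steep slope, at -1.21 (adjusted p = 0.015).

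The other inhibitors and pocket proteins were not called either. CDKN2C, an inhibitor of CDK4 and CDK6, passed the adjusted p but not the fold, at 0.58 (SE 0.22, adjusted p = 0.047). The estimate for CDKN1B was 0.07 (SE 0.19, adjusted p = 0.84). RBL1 (p107) was just outside the threshold at 0.85 (SE 0.33, adjusted p = 0.052), and was called with the block, with the slope covariate and without the 9 libraries. The estimates for RB1 and RBL2 (p130) were -0.36 (SE 0.45, adjusted p = 0.60) and 0.23 (SE 0.30, adjusted p = 0.61).

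Both transcription factors rose. E2F1, which acts at the entry into S phase, rose by 0.99 (SE 0.32, adjusted p = 0.017), with values from 15.2 to 84.4 (median 29.6) before and from 19.96 to 185 (median 68.1) after. FOXM1 rose by 1.47 (SE 0.43, adjusted p = 0.0089), with values from 4.18 to 174 (median 20.7) before and from 19.8 to 159 (median 69.3) after. Neither was called without the 9 libraries, where the estimates were 0.65 (adjusted p = 0.15) and 1.34 (adjusted p = 0.066).

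Of the 8 genes that load and run the replication machinery, 6 rose. MCM2 to MCM7 form the ring that unwinds DNA, CDC6 loads it on origins, and PCNA is the clamp that holds the polymerase. MCM2 (ENSOARG00020018340, chromosome 19, 61843862 to 61861166) ranged from 303 to 1226 (median 475) in preadipocytes and from 724 to 1935 (median 1191) in differentiated cells. In control males, MCM2 was 1226, 1098, 414 and 372 in the MC libraries and 1601, 1193, 1582 and 903 in the MCD libraries. In control females, MCM2 was 534, 574, 570.1 and 366 in the FC libraries and 872, 1169, 1515 and 1154 in the FCD libraries. MC1 and MC2 were the highest preadipocyte libraries, and in females the groups were apart. In growth-restricted males, MCM2 was 556, 409.9, 776 and 303 in the MFGR libraries and 1935, 1347, 1419 and 724 in the MFGRD libraries. In growth-restricted females, MCM2 was 456, 381, 495 and 353 in the FFGR libraries and 866, 1188, 1179.8 and 1610.3 in the FFGRD libraries. The FFGR and FFGRD libraries did not overlap, and in MFGR only MFGR3 and MFGRD4 did. MCM2 rose by 1.26 (SE 0.18, adjusted p = 3.4e-06).

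The other members of the ring followed with smaller changes. MCM4 rose by 1.14 (SE 0.21, adjusted p = 1.1e-04), MCM5 by 0.92 (SE 0.26, adjusted p = 0.0069) and MCM3 by 0.64 (SE 0.20, adjusted p = 0.014). MCM6 (0.56 (SE 0.17, adjusted p = 0.011)) and MCM7 (0.36 (SE 0.13, adjusted p = 0.039)) passed the adjusted p without reaching the fold. PCNA rose by 1.02 (SE 0.17, adjusted p = 3.3e-05), with values from 293 to 834 (median 433) before and from 528 to 1345 (median 908) after. CDC6 rose by 1.13 (SE 0.42, adjusted p = 0.036). Without the 9 libraries 6 of these 8 genes were again called, with MCM6 in and CDC6 out. Neither gene of nucleotide supply was called. RRM1, the large subunit of ribonucleotide reductase, was below the fold at 0.34 (SE 0.13, adjusted p = 0.046), and TYMS, which makes thymidylate, was at 0.12 (SE 0.20, adjusted p = 0.71).

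All 6 cyclins and kinases of S phase, G2 and mitosis rose. AURKB, the Aurora kinase of the chromosomal passenger complex (ENSOARG00020022344, chromosome 11, 35586974 to 35591304), ranged from 6.28 to 208 (median 34.1) before and from 38.8 to 205 (median 108) after. In control males, AURKB was 208, 122, 24.4 and 7.11 in the MC libraries and 152, 205, 108 and 75.4 in the MCD libraries. In control females, AURKB was 54.8, 40.9, 35.7 and 32.5 in the FC libraries and 69.3, 107, 118 and 109.8 in the FCD libraries. The lowest value of the male control preadipocytes was in MC4 and the highest in MC1, while in females the stages were apart. In growth-restricted males, AURKB was 18.8, 25.8, 108 and 6.28 in the MFGR libraries and 146, 98.0, 200.4 and 38.8 in the MFGRD libraries. In growth-restricted females, AURKB was 27.5, 72.9, 48.2 and 13.8 in the FFGR libraries and 39.1, 100.3, 205 and 96.9 in the FFGRD libraries. Both growth-restricted backgrounds overlapped between stages. AURKB rose by 1.54 (SE 0.39, adjusted p = 0.0031) and PLK1, a kinase of mitotic entry and exit, by 1.43 (SE 0.36, adjusted p = 0.0025). CDK1, which drives mitosis, rose by 1.38 (SE 0.40, adjusted p = 0.0087), and its cyclins CCNA2 and CCNB2 by 1.27 (SE 0.43, adjusted p = 0.022) and 0.98 (SE 0.32, adjusted p = 0.018). AURKA, the Aurora kinase of the spindle poles, rose by 1.35 (SE 0.47, adjusted p = 0.027). Only AURKB and PLK1 of these 6 were called without the 9 libraries, where the estimates of the other 4 stayed above 0, from 0.85 for CCNB2 to 1.17 for AURKA.

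Of 6 genes of the spindle, its checkpoint and cytokinesis, 5 rose. CDC20 activates the ubiquitin ligase that ends metaphase. CDC20 (ENSOARG00020000896, chromosome 1, 18627848 to 18631785) ranged from 1.43 to 361 (median 61.1) in preadipocytes and from 39.5 to 638 (median 151) in differentiated cells. In control males, CDC20 was 361, 211, 33.6 and 1.43 in the MC libraries and 178, 638, 155 and 104 in the MCD libraries. In control females, CDC20 was 78.3, 53.6, 68.5 and 88.9 in the FC libraries and 39.5, 327, 163 and 148 in the FCD libraries. MC4 was the lowest of all 32 libraries, at about 1 read, and MC1 was above 3 of the 4 MCD libraries. In growth-restricted males, CDC20 was 20.9, 99.6, 168 and 15.8 in the MFGR libraries and 268, 129.9, 174 and 64.7 in the MFGRD libraries. In growth-restricted females, CDC20 was 40.9, 27.9, 71.7 and 8.36 in the FFGR libraries and 43.6, 114, 244 and 104 in the FFGRD libraries. The stages overlapped in each. CDC20 rose by 1.57 (SE 0.52, adjusted p = 0.022).

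KIF11, the motor that pushes the spindle poles apart (ENSOARG00020013982, chromosome 22, 16072580 to 16112540), ranged from 20.2 to 1865 (median 141) before and from 152 to 1573 (median 593) after. In control males, KIF11 was 1865, 1376, 119 and 36.0 in the MC libraries and 1573, 447, 725 and 202 in the MCD libraries. In control females, KIF11 was 705, 40.7, 407 and 285 in the FC libraries and 424, 497, 1428 and 689 in the FCD libraries. MC1 was above all 16 differentiated libraries. In growth-restricted males, KIF11 was 20.2, 138, 1264 and 106 in the MFGR libraries and 251, 806, 1525 and 405 in the MFGRD libraries. In growth-restricted females, KIF11 was 222, 22.2, 87.4 and 144 in the FFGR libraries and 370.0, 923, 152 and 935 in the FFGRD libraries. MFGR3 was again far above the other 3 libraries of its group. KIF11 rose by 1.68 (SE 0.57, adjusted p = 0.024). BUB1, a kinase of the spindle checkpoint, rose by 1.52 (SE 0.37, adjusted p = 0.0020), TPX2, which builds spindle microtubules, by 0.81 (SE 0.29, adjusted p = 0.030), and KIF20A, a motor of cytokinesis, by 1.15 (SE 0.44, adjusted p = 0.044). ANLN, a scaffold of the cleavage furrow, was not called, at 0.23 (SE 0.43, adjusted p = 0.73). The main fit called 27.2% of all genes, and the fit without the 9 libraries, which holds fewer samples, 27.8%. Of the 6 genes, only BUB1 was called without the 9 libraries. The estimates there were 1.5 for KIF11, 1.22 for CDC20, 0.92 for KIF20A and 0.71 for TPX2.

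TOP2A, the topoisomerase that untangles chromosomes and a usual marker of proliferation (ENSOARG00020007860, chromosome 11, 22530568 to 22556157), ranged from 81.9 to 6838 (median 511) in preadipocytes and from 449 to 5902 (median 2281) in differentiated cells. In control males, TOP2A was 6838, 4590.0, 544 and 195 in the MC libraries and 5902, 1076, 2189 and 666 in the MCD libraries. In control females, TOP2A was 2285, 97.9, 1445 and 1106 in the FC libraries and 1926, 1143, 5278 and 3215 in the FCD libraries. MC1 was the highest of all 32 libraries and FC2 was far below the other FC libraries. In growth-restricted males, TOP2A was 110.3, 351, 3690.3 and 477 in the MFGR libraries and 820.5, 3020.1, 4859 and 2374 in the MFGRD libraries. In growth-restricted females, TOP2A was 829.8, 81.9, 231 and 422 in the FFGR libraries and 1513, 3685, 449 and 4474 in the FFGRD libraries. MFGR1 and FFGR2 were the lowest of their groups, and FFGRD3 was the lowest differentiated library. TOP2A rose by 1.72 (SE 0.56, adjusted p = 0.019), and by 1.68 (adjusted p = 0.021) without the 9 libraries.

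**Figure D2:**
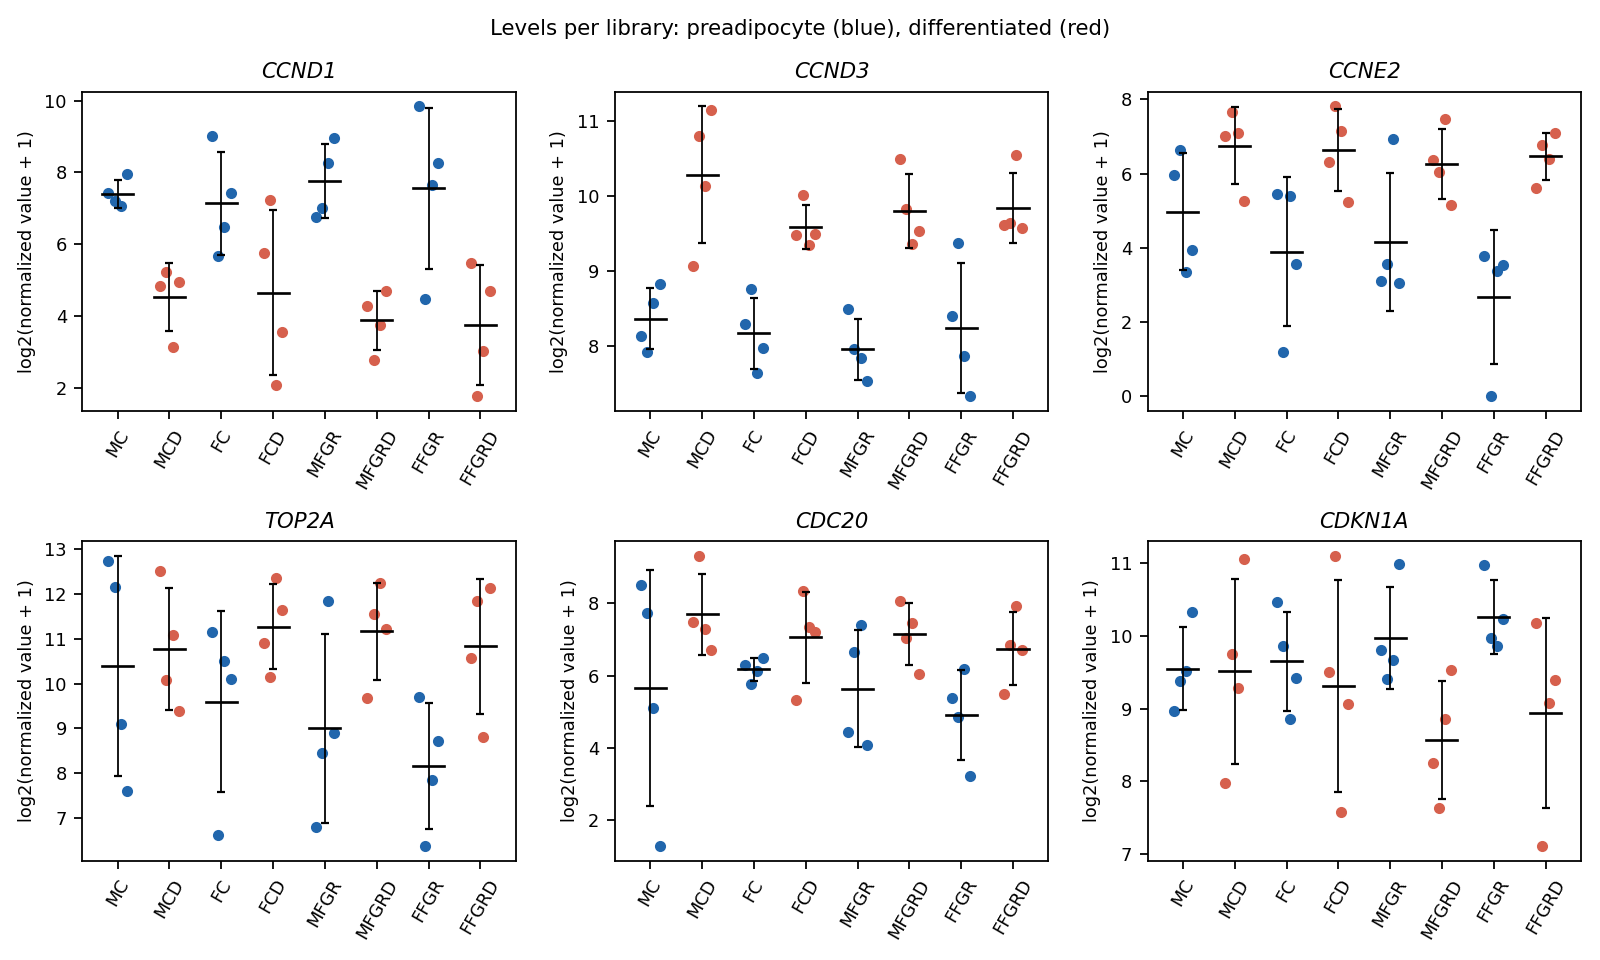
Levels of 6 genes in every library, as log2(normalized value + 1). Blue points are preadipocyte libraries, red points differentiated ones, and bars are the mean and SD of the 4 libraries of a group. CCND1 is lower and CCND3 higher after differentiation in each background, while CDC20 and TOP2A spread widely in MC, where 2 libraries are high and 2 low.

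In MC, MFGR and FC, preadipocyte libraries of the same group differed strongly in mitotic genes. The median of the 13 genes of the S, G2 and M kinases, the spindle and TOP2A, each centred on its mean over the 32 libraries, was 1.89, 1.35, -1.29 and -2.94 in MC1 to MC4. It was -2.11, -0.78, 1.10 and -1.58 in MFGR1 to MFGR4, so that 3 preadipocyte libraries (MC1, MC2 and MFGR3) were high. FC1 to FC4 lay at 0.55, -2.01, -0.17 and -0.41, and FFGR1 to FFGR4 at -0.64, -1.61, -0.56 and -1.5. Differentiated libraries ran from -0.63 to 1.5, with a median of 0.67, against -0.71 in preadipocytes. MC1 was the highest preadipocyte library for 22 of the 39 genes. CDC20 spanned 252-fold among preadipocyte libraries and 16.2-fold among differentiated ones, and TOP2A 83.5-fold and 13.1-fold.

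Over the whole list, the SD within groups on the log2 scale had a median over the 39 genes of 0.95 in preadipocytes and 0.77 in differentiated cells, against 0.75 and 0.73 over all genes tested. It was larger in preadipocytes for 29 of the 39 genes, and for 56.1% of all genes. The median of the 8 genes of licensing, helicase and clamp, centred in the same way, spanned less and ran from -1.26 to 0.63 in preadipocytes and from -0.35 to 0.89 in differentiated cells.

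**Figure D3:**
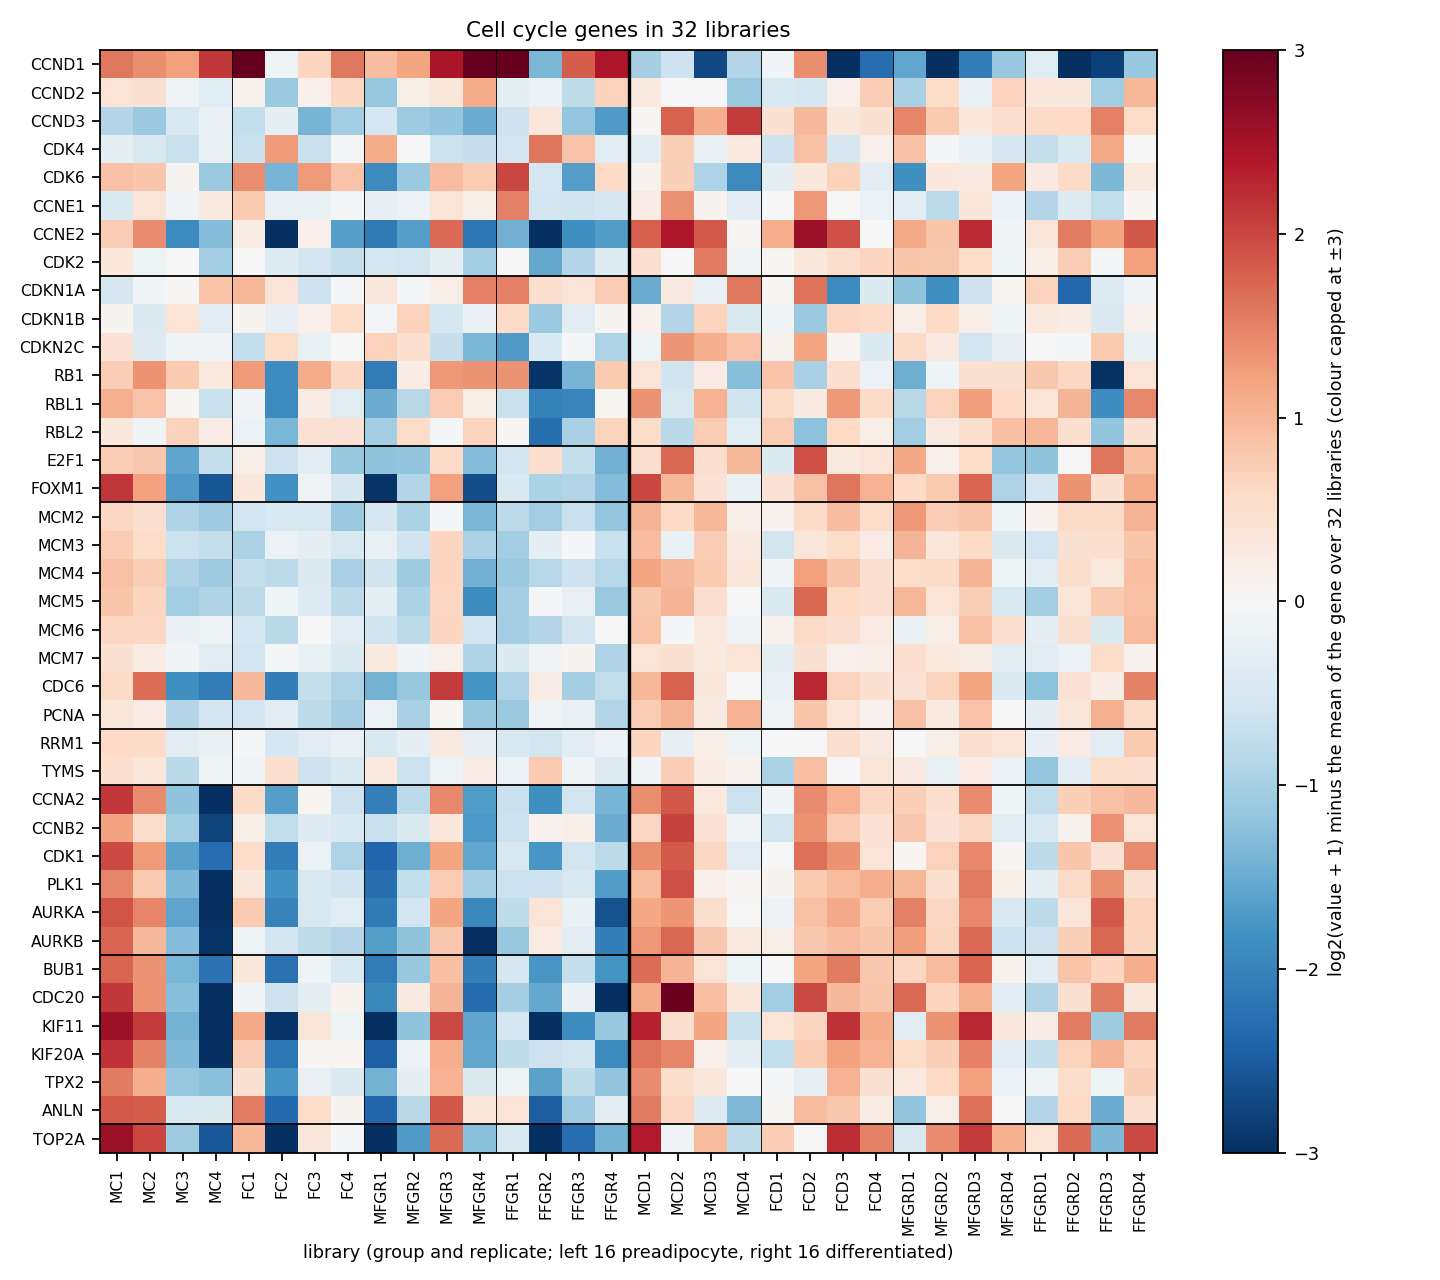
Values of the 39 genes in the 32 libraries, as log2(value + 1) minus the mean of the gene, with colours capped at 3 in both directions. Rows are ordered by role and columns by group, with the 16 preadipocyte libraries on the left. The mitotic rows are red in MC1, MC2 and MFGR3 and blue in most other preadipocyte libraries, while CCND1 runs the opposite way across the stages.

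Each background was also compared by itself within the same fit. The 4 comparisons share no library but share 1 estimate of the spread, so they are not independent tests. In MC, 1 of the 39 genes was called, CCND3 at 1.91 (SE 0.40, adjusted p = 0.0028), against 8.35% of all genes, and the median change was 0.71 (-0.02 over all genes). With the replicate number as a block, which treats same-numbered libraries as pairs, 4 were called, against 1824 of 12737 genes. These were CCND3, PCNA and MCM2, higher, and CCND1, lower. Fitted on the 8 libraries alone, 2 were called, CCND3 and CCND1, against 7.53% of all genes. Without MC1, 3 genes were called, and without FFGR2, which enters only through the shared spread, 2. Here and in the other backgrounds, counts with 1 library left out are given without the calls over all genes in those fits. They are not read as results about the list. Without the 9 libraries of steep slope, 2 genes were called, CCND3 and CCND1, against 8.22% of all genes. CCND3 was above and CCND1 below with no overlap between the stages, where 7.65% and 8.70% of all genes were.

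In FC, limma called 0 of the 39 genes, against 2.52% of all genes. At an unadjusted p below 0.05 there were 10 of the 39, against 15.5% of all genes. In MC there were 5 of the 39, against 2698 of 12737 genes. In MFGR there were 12, against 2206, and in FFGR 12, against 2973. CCND3 came nearest, at 1.41 (SE 0.40, adjusted p = 0.057), and then MCM2 at 1.2 (SE 0.36, adjusted p = 0.068). With the block, PCNA, CCND3, MCM2 and MCM4 were called higher, where 712 of 12737 genes were called in either direction. Leaving out MCD1, MCD4, FFGR2, FFGR4 or FFGRD3 gave 1 call each. Without the 9 libraries of steep slope there were 2, against 5.89% of all genes. In FC, 10 genes were above without overlap (CDK2, RBL1, RRM1, PCNA, FOXM1, MCM6, CCND3, MCM2, AURKB and MCM4), or 10 of 39 where 4.91% of all genes were. The median change was 0.89, against 0.02 over all genes.

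In MFGR, 3 genes were called, against 5.13% of all genes. CCND3 rose by 1.84 (SE 0.40, adjusted p = 0.0060) and MCM2 by 1.41 (SE 0.36, adjusted p = 0.019), and CCND1 fell, at -3.88 (SE 1.01, adjusted p = 0.022). With the block, 9 were called, against 1147 of 12737 genes: BUB1, CDK2, PCNA, CCND3, MCM2, AURKB and MCM4 higher, and CCND1 and CDKN1A lower. Fitted on these 8 libraries alone, 2 were called, CCND3 and CCND1, against 3.38% of all genes. Without MFGR3, 7 were called. Without MFGR4, MFGRD2 or MFGRD3 it was 1, and MCM2 also lost its call without MFGR2 or MFGRD1. Without the 9 libraries of steep slope, 2 genes were called, CCND3 and CCND1, against 8.9% of all genes, and MCM2 was not called. CDK2 and CCND3 lay above and CCND1 below without overlap, against 5.16% and 6.40% of all genes. The median change was 1.00 (0.06 over all genes).

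In FFGR, 5 genes were called, against 10.3% of all genes. CCNE2 rose by 3.79 (SE 0.98, adjusted p = 0.012), CCND3 by 1.60 (SE 0.40, adjusted p = 0.010), MCM2 by 1.5 (SE 0.36, adjusted p = 0.0069) and CDK2 by 1.24 (SE 0.37, adjusted p = 0.030), and CCND1 fell, at -3.82 (SE 1.01, adjusted p = 0.014). The rise of CCNE2 rests in part on FFGR2, listed at 0, without which the change was 2.89 (adjusted p = 0.073). Fitted on the FFGR and FFGRD libraries alone, only MCM2 was called, against 2.67% of all genes. Without FFGR2, or without FFGRD2, 3 genes were called. CDK2 lost its call without FFGR2, FFGR3, FFGRD2 or FFGRD4, and CCND1 without FFGR1 or FFGRD2. Without the 9 libraries of steep slope, 2 genes were called, CCND3 and CCND1, against 8.55% of all genes. There were 7 genes above without overlap (BUB1, CCNE2, TPX2, CCND3, MCM2, MCM4 and PLK1), against 5.14% of all genes, and the median change was 0.91 (0.02 over all genes).

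Across the backgrounds, 29 of the 39 estimates were above 0 in MC, 33 in FC, 34 in MFGR and 33 in FFGR, against 48.8%, 51.4%, 54.1% and 51.1% of all genes. No gene of the list separated all 16 differentiated from all 16 preadipocyte libraries, which 0.44% of all genes did upward and 0.652% downward. Among the 12 numbered pairs of MC, FC and MFGR, 6 of the 39 genes (CCND3, CCNE2, CDK2, MCM2, MCM4 and PCNA) were higher after differentiation in all 12, against 5.57% of all genes. CCND1 was lower in 11 of these 12 pairs, the exception being the second pair of female controls, and 14.6% of all genes were lower in at least 11.

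**Figure D4:**
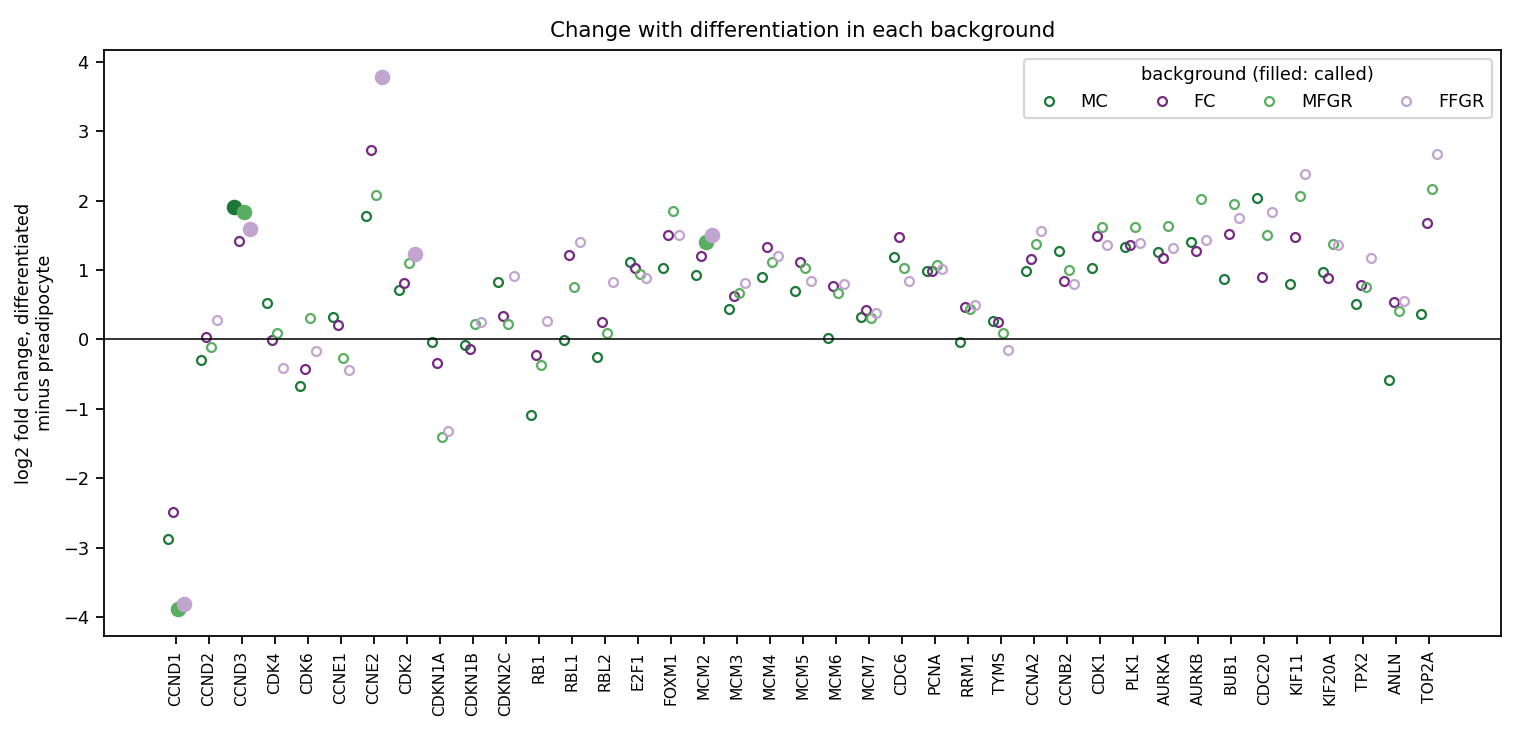
Change with differentiation in each background for the 39 genes, as log2 fold change (differentiated minus preadipocyte, 4 against 4 libraries). Filled points were called by limma. CCND1 is below and CCND3 and CCNE2 above 0 in all 4 backgrounds, while TOP2A, KIF11 and ANLN have their lowest estimates in MC.

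The response to differentiation was then compared between backgrounds. For the growth-restricted minus the control response, limma called 0 of the 39 genes and 0 of 12737, and at an unadjusted p below 0.05 there were 0 of the 39 and 1.04% of all genes. The median difference was 0.25 over the list and 0.02 over all genes, with 29 of 39 above 0 against 51.3%. CDKN1A, given above, had the smallest p. The difference for TOP2A was 1.40 (SE 1.13, adjusted p = 0.99), with an interval of -0.91 to 3.72. For CCND3 it was 0.05 (SE 0.40, adjusted p = 0.99), with an interval of -0.77 to 0.88. For males minus females 0 of the 39 and 0 of 12737 genes were called, with 0 and 0.911% at an unadjusted p below 0.05. Of the 39 estimates 15 were above 0, against 49% of all genes. The smallest p was that of RBL1, at -0.93 (SE 0.67, adjusted p = 0.91), and CCNE2 differed by -1.33 (SE 0.98, adjusted p = 0.91). These intervals are wide, and the comparison does not show that the backgrounds respond alike.

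Growth restriction itself was compared within each stage. In preadipocytes 0 of the 39 genes were called, as were 0 of 12737, and at an unadjusted p below 0.05 there were 0 of the 39 and 2.70% of all genes. The estimates lay mostly on the lower side: 4 of 39 were above 0, against 48.4% of all genes, with a median of -0.34 against -0.02. TOP2A was lowest, at -1.42 (SE 0.80, adjusted p = 0.84) with an interval of -3.05 to 0.22, followed by KIF11 at -1.32 (SE 0.81, adjusted p = 0.84). Genes of 1 library move together, so the shared sign of these estimates is not a count of independent results. MC1 and MC2, the preadipocyte libraries with the highest mitotic genes, are among the male controls. By sex, TOP2A differed by -1.40 (SE 1.13) in males and -1.44 (SE 1.13) in females. KIF11 differed by -1.21 (SE 1.15) in males and -1.42 (SE 1.15) in females. Of the 4 preadipocyte libraries of steep slope, MFGR1, FFGR2 and FFGR3 are growth-restricted and FC2 is a control. Without the 9 libraries of steep slope, 8 of 39 estimates were above 0 (51% of all genes), with a median of -0.35 and differences of -1.02 (SE 0.77) for TOP2A and -0.79 (SE 0.85) for KIF11. With the slope as a covariate the difference for TOP2A was -0.84 (SE 0.49). In males alone 6 of 39 estimates were above 0 (47.8% of all genes; median -0.36) and in females 7 (48.4%; median -0.24). In each, limma called 0 genes, and at an unadjusted p below 0.05 there were 0 of the 39, against 1.37% and 1.33% of all genes.

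In differentiated cells growth restriction again gave 0 calls among the 39 genes and among all 12737. The median was -0.15 against -0.01 over all genes, and 8 of 39 estimates were above 0, against 48.9% of all genes. CCNE1 was the only gene of the list with an unadjusted p below 0.05, at -0.66 (SE 0.31, adjusted p = 1.00), where 1.07% of all genes were below that level. TOP2A differed by -0.01 (SE 0.80, adjusted p = 1.00), with an interval of -1.65 to 1.62, and MCM2 by 0.01 (SE 0.25, adjusted p = 1.00), with an interval of -0.51 to 0.53. In males 15 and in females 9 of 39 estimates were above 0, against 52.6% and 45.4% of all genes. In each, limma called 0 genes, with 0 of the 39 at an unadjusted p below 0.05, against 2.69% and 1.51% of all genes.

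**Figure D5:**
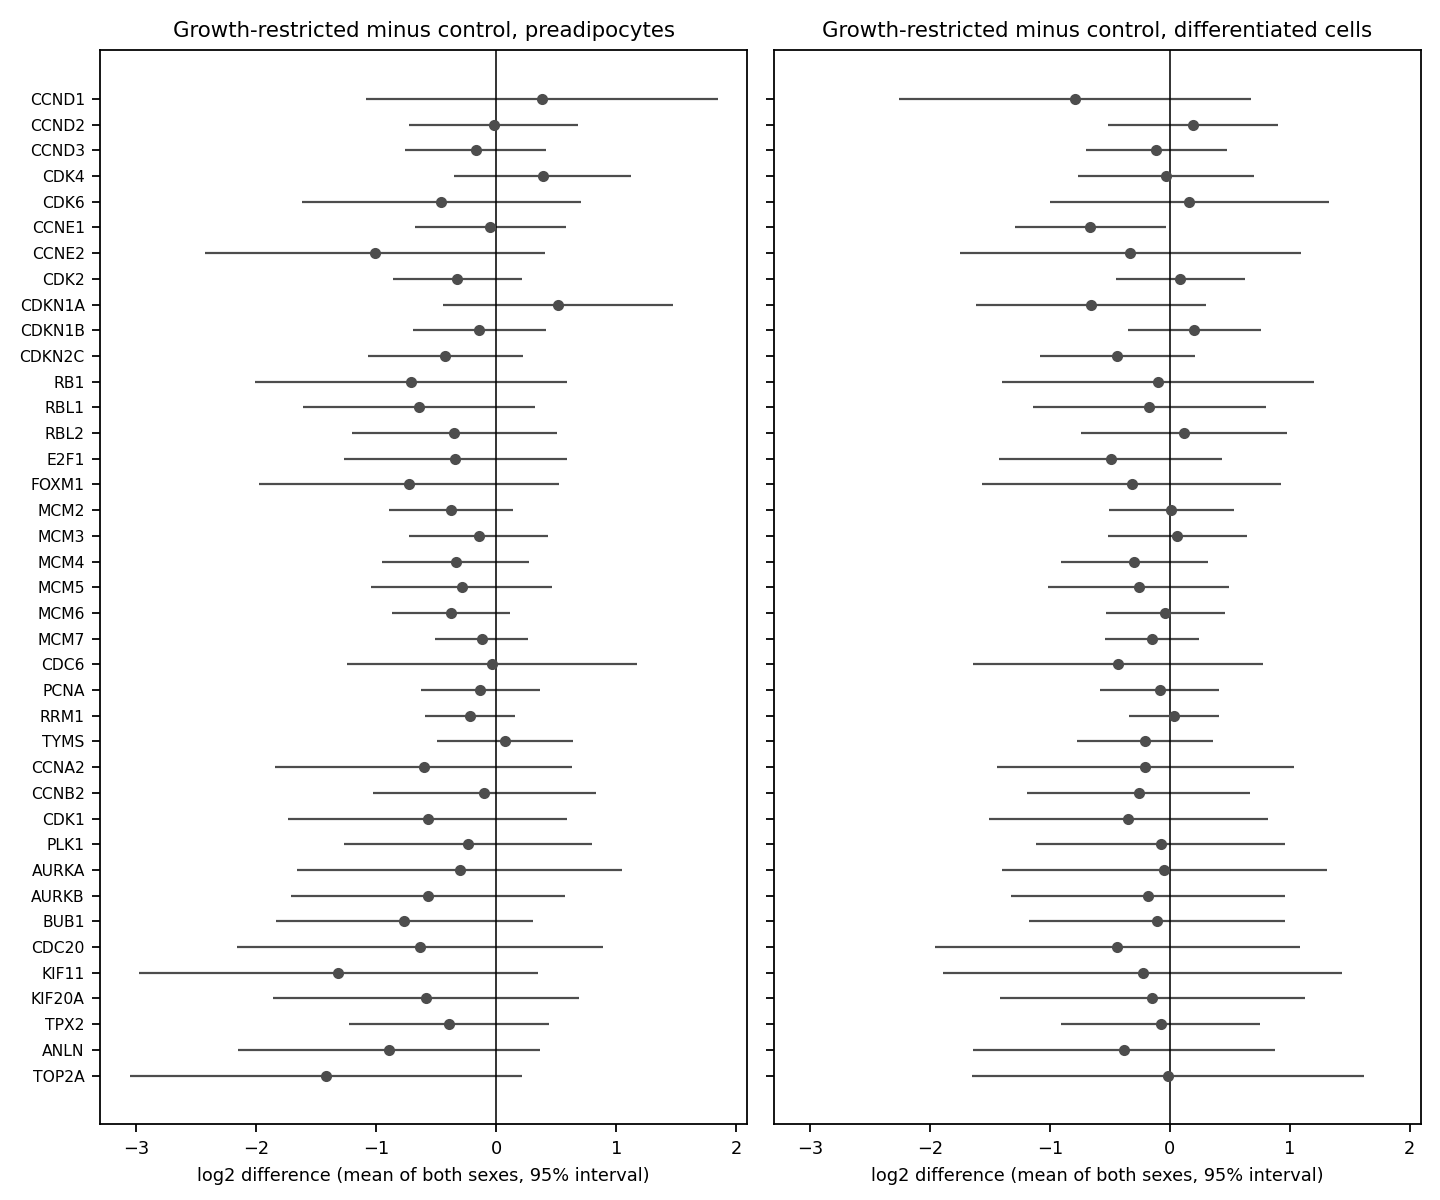
Growth-restricted minus control, as log2 difference of the mean of both sexes with 95% intervals from limma, for preadipocytes on the left and differentiated cells on the right. In preadipocytes 35 of 39 points lie below 0, and 39 of 39 intervals include it. In differentiated cells the interval of CCNE1 ends just below 0.

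Sex was compared in the same way. Males minus females gave 0 calls among the 39 genes in preadipocytes and 0 in differentiated cells, with 0 called of 12737 in each and 0 of the 39 at an unadjusted p below 0.05. Of all genes, 4.32% and 1.25% were below that level. The estimate was above 0 for 30 of 39 genes in either stage, against 51.2% and 50% of all genes, with medians of 0.21 and 0.08. MCM6 came nearest in preadipocytes, at 0.46 (SE 0.24, adjusted p = 0.85), and CCNE2 differed by 1.28 (SE 0.69, adjusted p = 0.85). In differentiated cells the smallest p was that of CCND3, at 0.33 (SE 0.29, adjusted p = 1.00).

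A wider list of 128 other cell cycle genes was followed beside these. Of 109 tested, 57 rose and 1 fell with differentiation in the mean of the backgrounds, with 100 estimates above 0 and a median of 0.90. Of all genes tested, 12.4% were called higher, 14.8% lower and 52.4% had estimates above 0, with a median of 0.03. Of 48 further genes of mitosis 34 rose (70.8%) and all 48 had estimates above 0, and of 37 of replication 18 rose (48.6%). Of 24 genes of G1 control and arrest, 5 rose, or 20.8% (MYBL2, BTG1, MYC, GADD45B and LIN52), and 1 fell (CCNG1). BTG1 and GADD45B are known for restraining growth, and MYBL2 and MYC for driving it. The largest rises were those of FAM83D, a spindle protein (2.66, SE 0.39), MYBL2, a partner of the complex that switches on mitotic genes (2.37, SE 0.47), and KIF18B, a kinesin (2.09, SE 0.46). CCNG1, a target of p53, fell by 1.08 (SE 0.23). Without the 9 libraries of steep slope, 22 genes of mitosis, 21 of replication and 5 of G1 control were called higher, and 1 of G1 control lower, where 11.4% of all genes were called higher.

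The labels were checked against cell type markers, since the extraction protocol speaks of adipose tissue where the sample labels give preadipocytes. FABP4, the fatty acid carrier of fat cells, had a median of 13.1 in preadipocytes and 10561 in differentiated cells, and ADIPOQ, which encodes adiponectin, 11.7 and 1197. PLIN1 of lipid droplets went from 23.7 to 786, and all 8 markers of mature adipocytes rose in the mean of the backgrounds. In single backgrounds 8 were called higher in MC, 2 in FC, 4 in MFGR and 5 in FFGR. The stages overlapped: the lowest differentiated library had 8.59 for ADIPOQ and 19.0 for PLIN1, and the highest preadipocyte library 216 and 35.7. The sum of the 8 markers was at least 415 in differentiated and at most 2042 in preadipocyte libraries. The fibroblast markers PDGFRA and COL1A1 were present at both stages, with medians of 10681 and 11532 and of 302705 and 171322. Of 9 fibroblast or preadipocyte markers tested 4 fell and 1 rose, with a median of -0.76, VIM having medians of 204776 and 57626, and DLK1 was at most 2.34 in any library. The summed markers of smooth muscle or pericytes ranged from 6203 to 59998 before and from 605 to 15401 after, and 3 of 4 tested fell. The endothelial sum ranged from 10.1 to 92.7 and from 5.84 to 287, with CLDN5 at 0 in all preadipocyte libraries. Markers of macrophages or leukocytes summed to between 88.4 and 1038 before and between 122 and 942 after, and 2 of 3 tested rose and 1 fell. Mesothelial sums were at most 330 and 127, and epithelial sums at most 1845 and 111. The mitochondrial share of values moved with the stage, with a median of 1.76% before and 2.82% after (range 1.29% to 5.94%). The parts of other cell types and of the mitochondrial share in these results were not tested. The libraries held about 8.0 to 20.5 M reads, and no 2 were identical.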

How the data were processed

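RNA of 32 libraries of fetal perirenal preadipocytes and differentiated adipocytes was sequenced. The authors dropped low-quality reads, assigned the rest to the Ensembl transcripts of Oar_rambouillet_v1.0 with Salmon, and normalized the counts with DESeq2. The deposited signal is this normalized value per transcript and library, and is not a whole number of reads. The deposited group means (signal), the fold changes (a signed score) and the p-values of the authors' own comparisons were not used.

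Values were summed per gene identifier (35219 transcripts, of which 8509 carry no gene name, and 21271 genes) and log2(value + 1) was taken. A gene was tested when its sum reached 10 in 4 or more libraries. All 32 libraries in 8 groups entered 1 fit in limma 3.58.1 (R 4.3.3) with an empirical Bayes trend, checked on simulated data, and 15 comparisons were drawn from it. The normalized values of a library summed to between 9.52 and 21.2 M, and libraries correlated at 0.631 to 0.887.

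The members and lists were chosen with earlier results of these data known. Values per library are given for TOP2A, CCND1 and CDKN1A, for the called genes with the largest changes in the mean comparison, and for up to 2 called genes of smallest p in each other comparison. Wider genes were named for the 3 largest rises and falls, and other names in the text were chosen after their values were seen.

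Same-numbered libraries deviated together, with a correlation over genes of 0.16 to 0.61 in MC, 0.30 to 0.51 in FC and 0.39 to 0.67 in MFGR, so the numbers were taken to pair these libraries. In FFGR (-0.40 to 0.56) they were not. The pairing is an assumption made from these correlations. FFGR2, with a span slope of -1.50, had -0.40 with FFGRD2 (slope -0.08) and matched FFGRD3 (slope -1.44) best. FFGR1, FFGR3 and FFGR4 had 0.33, 0.56 and 0.53. MC2 (slope -0.11) matched MCD1 (slope -0.08) better than MCD2 (slope -0.91). FC2 with FCD2, and MFGR1 with MFGRD1, are of steep slope at both stages. The part of the slope in these correlations was not tested. No sequence of a gene was used here. Alternatives covered the filter, pseudocount, normalization, library weights, the replicate block, the span slope (the slope of a library's log2 values on the log10 genomic span of the transcripts), the groups in the fit, single transcripts and each library left out.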

Additional observations from a re-analysis of the deposited data

Results flagged for a closer look

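Dixon's ratio was computed for 9 genes in 8 groups of 4 libraries, 72 in all, on the log2(value + 1) scale, and 4 passed its 95% critical value, where chance gives about 1 in 20. CCNE2 in MFGR had its highest library, MFGR3, apart from the other 3 (ratio 0.871, value 121). CCNE2 in FFGR had its lowest library, FFGR2, listed at 0 (ratio 0.893). CCND3 in FFGRD had its highest library, FFGRD3, apart (ratio 0.944, value 1489). MCM2 in FC had its lowest library, FC4, apart from 3 that lay close together (ratio 0.840, value 366). MFGR3 was also high in mitotic genes, and FFGR2 and FFGRD3 are among the 9 libraries of steep span slope. The part of these libraries' quality in the values was not tested.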

How the results depend on the processing

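The count of genes called in the mean of the backgrounds was 24 and stayed within 1.5 times of it in each alternative run: 17 with the study's filter of 20 CPM, 22 with no filter, 24 with a pseudocount of 0.1, 26 after quantile normalization, 25 with library weights, 26 with the replicate block, 26 with the span slope as a covariate, 16 without the 9 libraries of steep slope, and 20 to 27 with 1 library left out. The filter of 20 CPM took some of these genes out of the test. Of the 33 calls followed in the mean and in single backgrounds, 25 were still tested under it. These 25 all kept their direction and call. Of the 24 genes called in the mean, 20 were called in every fit with 1 library left out, and TPX2, CDC6, KIF20A and MCM3 were not. Over all genes, 27.2% were called in the main fit, 27.3% after quantile normalization and 31.2% with weights. The block gave 31.6%, the covariate 32.8% and the fit without the 9 libraries 27.8%. Within 1 background the counts moved more, and the calls over all genes moved as well. In MC (1 call) they were 2 with only the groups compared, 4 with the replicate block, 3 with library weights, 2 with the slope covariate, 2 without the 9 libraries and 1 to 3 with 1 library left out. Over all genes, 1063 were called in the main fit, 874 with only the groups compared, 1824 with the block and 2418 with weights. The covariate gave 2173 and the fit without the 9 libraries 1018. In FC (0 calls) they were 1 after quantile normalization, 4 with the block, 7 with weights, 6 with the covariate, 2 without the 9 libraries, 1 on single transcripts and 0 to 1 with 1 library left out. All genes called were 321 in the main fit, 383 after quantile normalization, 712 with the block and 1999 with weights. They were 1466 with the covariate and 730 without the 9 libraries. In MFGR (3 calls) they were 9 with the block, 8 with weights, 7 with the covariate, 2 without the 9 libraries and 1 to 7 with 1 library left out. All genes called here were 654 in the main fit, 1147 with the block, 1932 with weights, 2038 with the covariate and 1103 without the 9 libraries. In FFGR (5 calls) they were 1 with only the groups compared, 12 with the block, 10 with the covariate, 2 without the 9 libraries and 3 to 6 with 1 library left out. Of all genes, 1315 were called in the main fit, 310 with only the groups compared and 2185 with the block. The covariate gave 2581 calls and the fit without the 9 libraries 1059. The causes were not tested, and neither was the part of the smaller number of samples where libraries or groups were left out. The numbers were not taken to pair the libraries of FFGR, so its blocked count is given here only, and the blocked count of the mean takes in FFGR too. Growth restriction, sex and the differences of response had 0 calls among the genes of the list in each alternative. The block is not read for growth restriction and sex, where the libraries compared come from different fetuses and the numbers mark no pairs. Over all genes, growth restriction with library weights had 2 calls in preadipocytes and 2 in differentiated cells. By sex, the weights gave 2 in male preadipocytes, 1 in differentiated males and 1 in differentiated females. With no filter, growth restriction had 1 call in differentiated males. The 24 genes called in the mean of the backgrounds and the 9 calls in single backgrounds kept their direction. Among the genes not called, ANLN went from 0.23 to -0.07 and CCND2 from -0.02 to 0.01 without the 9 libraries, and CCND2, CCNE1, CDK4 and CDKN1B, all near 0, changed sign in some fits with 1 library left out. Fitting only the groups compared was not run for the mean and the response comparisons, which take in all 32 libraries. Values near 10 stand for a few reads, which limits CCND1 and CCNE2 most.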
